A study of Mus musculus with 6 samples.

Results

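The pumps described here are 10 genes of the ATP-binding cassette (ABC) family whose products carry drugs, lipids or conjugated metabolites out of the cell or across organelle membranes: Abcb1a, Abcb1b, Abcc1, Abcc2, Abcc3, Abcc4, Abcc5, Abcg2, Abca1 and Abcb6. They were taken as every probe of an Illumina mouse bead array whose platform annotation carries one of these symbols, which gave 14 of the array's 45281 probes and 10 of 19057 genes with a probe of 1 symbol. The cells were of mouse origin, cancerous and carrying rat her-2/neu, the oncogene form of an ErbB family receptor kinase. In one group of 3 arrays the cells were left untreated, and in the other group of 3 they received 8 µM withaferin A, a steroidal lactone from the plant Withania somnifera, for 6 h. All cells carry the rat oncogene and grew in the same serum-containing medium. The replicates were made at 3 early passages that the labels do not tie to single arrays, neither the tissue of origin nor a vehicle control is named, and p-values therefore measure the spread between these arrays.

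ABC pumps bind ATP on their cytosolic domains and use it to drive substrates outward. The ABCC members, the multidrug resistance proteins, prefer organic anions, above all the glutathione, glucuronide and sulfate conjugates that detoxifying enzymes produce, so they complete the removal of electrophiles that the transferases begin. P-glycoprotein, which mice encode in the tandem genes Abcb1a and Abcb1b, exports mainly uncharged or mixed drug substrates. Like the breast cancer resistance protein Abcg2, it is known for drug resistance of tumour cells. Abca1 hands cholesterol and phospholipid to apolipoproteins, and Abcb6 moves porphyrins.

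After withaferin A, 3 of the 10 pump genes rose, 1 fell, 2 were measured and did not pass the test, and 4 lay at background on all 6 arrays. Abcc4 rose 6.97-fold, Abcc1 4.70-fold and Abcb6 2.06-fold, while Abcc3 was 2.85-fold lower. The test was limma on quantile-normalized log2 intensities, with a threshold of 0.05 on p-values adjusted by Benjamini-Hochberg over 19077 probes above background (detection p under 0.05) on at least 3 arrays. Across all 9756 genes tested, 6.83% passed, 2.81% higher and 4.02% lower. The lower share rests on the scaling: 274 genes were higher and 392 lower, against 172 and 1259 with median scaling and 160 and 1531 without normalization between arrays, where the median change over probes was -0.17 and -0.22. Changes given here follow quantile normalization, after which the median over probes was 0.01.

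RefSeq promoter windows, running from 250 bases before to 50 bases after a gene's start on assembly GRCm38.p6, were found for 8 of the 10 genes. Abcc1, which rose, and Abcc3, which fell, had no entry and were not searched. Shown are both windows of Abcc4 and that of Abcb6, the risen genes with an entry, and that of Abcb1b, a measured gene that did not pass. All are written 5′ to 3′ on the gene's strand. Capitals mark TGACNNNGC, the core of the antioxidant response element read by NRF2, and GGGCGG, the GC box, each on either strand.
Abcc4, first window (chr14:118706170-118706469, minus strand): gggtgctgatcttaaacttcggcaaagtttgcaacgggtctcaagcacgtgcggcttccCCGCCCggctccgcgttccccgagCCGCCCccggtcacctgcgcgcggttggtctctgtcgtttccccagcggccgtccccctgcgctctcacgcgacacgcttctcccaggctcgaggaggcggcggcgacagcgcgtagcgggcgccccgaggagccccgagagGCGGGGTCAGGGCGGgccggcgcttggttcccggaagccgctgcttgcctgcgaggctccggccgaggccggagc
Abcc4, second window (chr14:118676882-118677181, minus strand): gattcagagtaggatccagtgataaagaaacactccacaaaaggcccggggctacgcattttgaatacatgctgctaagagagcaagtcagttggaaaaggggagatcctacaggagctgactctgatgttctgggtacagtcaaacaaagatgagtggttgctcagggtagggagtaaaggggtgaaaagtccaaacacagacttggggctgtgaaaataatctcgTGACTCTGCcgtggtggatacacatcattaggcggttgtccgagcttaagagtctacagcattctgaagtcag
Abcb6 (chr1:75180343-75180642, minus strand): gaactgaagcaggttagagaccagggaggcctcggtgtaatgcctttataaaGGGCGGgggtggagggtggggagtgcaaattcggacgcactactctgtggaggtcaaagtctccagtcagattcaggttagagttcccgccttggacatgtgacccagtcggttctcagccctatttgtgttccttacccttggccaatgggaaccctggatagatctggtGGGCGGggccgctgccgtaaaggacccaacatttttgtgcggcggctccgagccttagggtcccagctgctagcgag
Abcb1b (chr5:8797897-8798196, plus strand): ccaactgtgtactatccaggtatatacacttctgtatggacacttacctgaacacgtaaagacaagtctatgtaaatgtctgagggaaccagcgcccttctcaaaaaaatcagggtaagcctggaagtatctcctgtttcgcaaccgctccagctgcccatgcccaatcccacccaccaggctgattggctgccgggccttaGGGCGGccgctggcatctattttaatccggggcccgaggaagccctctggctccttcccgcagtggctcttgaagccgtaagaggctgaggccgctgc
The antioxidant response core occurred once in each Abcc4 window, starting at base -25 in the first and -23 in the second, with the start base counted as 0. In the first window it reads GCGGGGTCA, the motif on the opposite strand, and abuts a GC box, so the capitals run together there. In the second window it reads TGACTCTGC. No match lay in the windows of Abcb6, Abcb1b, Abcc5, Abca1 or Abcg2, whereas Abcc2 had TGACATAGC at -98 and Abcb1a had GCGGAGTCA at 26. Of 32851 mouse windows of the same length, 12.4% hold the core and 35.7% hold the GC box. The first Abcc4 window also held GCGTG, the core of the xenobiotic response element read by the aryl hydrocarbon receptor, at -101 and -94 on the opposite strand. A window of Abcg2, a pump at background on all arrays, held that core at 19, and 32.4% of all windows hold it. GC content was 72.7% and 47.3% in the Abcc4 windows, 57.0% for Abcb6 and 55.0% for Abcb1b, against a median of 52.7%. A match of letters describes the sequence and is no evidence of binding.

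Abcc4, the export pump of cyclic nucleotides, prostaglandins and conjugated steroids, had the largest rise of the pumps. The deposited intensities of its probe were 226.7, 297.6 and 322.1 without treatment and 1210.2, 1418.8 and 1470.8 with withaferin A, in the order of arrays 1 to 3 in each group here and below. All treated arrays lay above all untreated arrays, and the dimmest treated array stood well clear of the brightest untreated one. After normalization the log2 intensity went from 7.66 ± 0.40 to 10.46 ± 0.15 (SD, n = 3 each), a log2 change of 2.80 (SE 0.21, limma adjusted p = 0.000105). Among the 8631 genes whose brightest tested probe was above background on all 6 arrays, it was the 27th largest rise. The change stayed between 2.59 and 3.00 with each array left out in turn and passed every time.

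Abcc1, which exports glutathione conjugates such as leukotriene C4 as well as oxidised glutathione, rose at both of its probes that were above background in both groups, by different amounts. Of all 19077 tested probes, 5.90% passed. Its brightest probe read 169.7, 183.6 and 175.6 untreated and 504.2, 549.6 and 500.4 treated. Spread within each group was small, and the groups were far apart. The log2 intensity of that probe went from 6.76 ± 0.11 to 8.99 ± 0.03, a log2 change of 2.23 (SE 0.14, limma adjusted p = 4.05e-05). This was the 38th largest rise among the 8631 genes. The probe annotated to a cDNA record rather than to a RefSeq transcript read 117.4, 114.8 and 120.4 untreated and 181.5, 198.6 and 136.5 treated. Its groups did not overlap either, but withaferin A array 3 lay nearer to the untreated arrays than the other treated arrays did. Its log2 change was 1.18 (SE 0.22, limma adjusted p = 0.0159), a 2.26-fold rise. That call was lost without untreated array 3 or withaferin A arrays 1 or 2 (limma adjusted p up to 0.0769) and with no detection filter (0.0831). The remaining, dim probe was above background on 0 of 3 untreated and 3 of 3 treated arrays, with intensities of 71.6 to 74.3 and 85.3 to 101.1. It entered the test through the treated arrays alone and is not counted in support of the rise. Because its untreated level is only a bound, set at the lowest signal above background on each array, its difference is given as at least 1.34-fold. The test took the untreated level as measured (limma adjusted p = 0.0268), so that p does not belong to the bound. The call was lost in 4 of 6 fits with an array left out. The mean over all 3 probes, which takes the dim probe at its measured untreated level, gave 2.67-fold (limma adjusted p = 0.00141). The size of the change thus depends on the probe.

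Abcc3, a pump of glucuronides and bile salts, was the pump that fell. It read 628, 701 and 1070.9 untreated and 234.8, 208.6 and 385.7 treated. The groups did not overlap, but replicates of both groups spread widely, with array 3 the brightest in each. The log2 intensity went from 9.38 ± 0.55 to 7.87 ± 0.60, and the gene fell by 1.51 on the log2 scale (SE 0.33, limma adjusted p = 0.0325), the 46th largest fall of the 8631 genes. The call sat close to the threshold. It was lost without untreated arrays 2 (limma adjusted p = 0.0581) or 3 (0.108) or withaferin A arrays 1 (0.114) or 2 (0.102), and the range over all 6 omissions was 0.00772 to 0.114. The fall was also not called without background correction (limma adjusted p = 0.0554) or with no detection filter (limma adjusted p = 0.159), and with the replicate number as a block it passed at a limma adjusted p of 0.00135. The direction was lower in each of these fits.

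**Figure D1:**
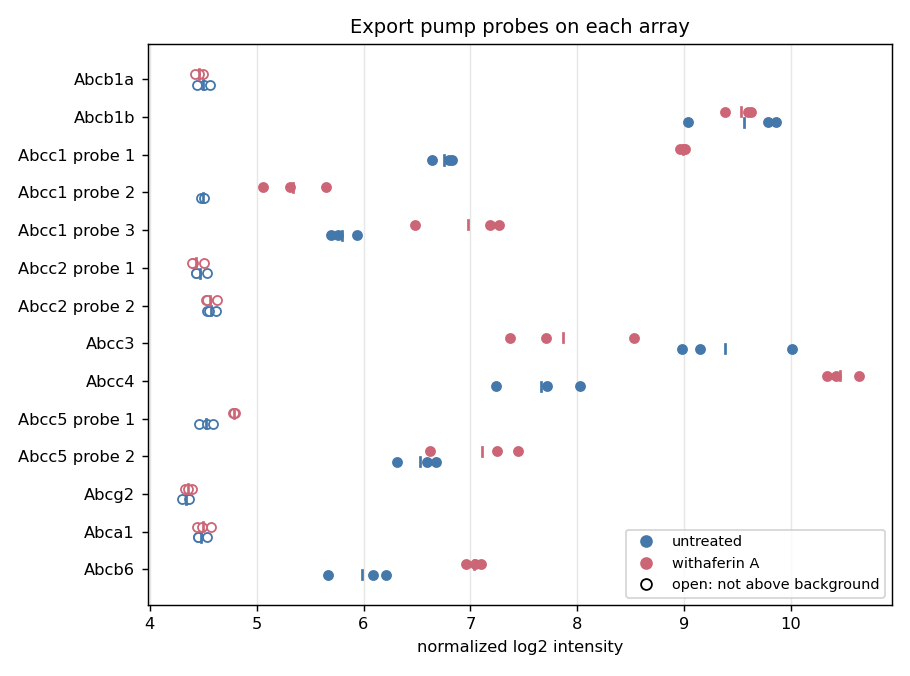
Normalized log2 intensity (x axis) of the 14 export pump probes (rows; Abcc1 probe 1 is the brightest, probe 2 the dim one and probe 3 that of the cDNA record) on 3 untreated and 3 withaferin A arrays, with bars at group means and open circles where the probe was not above background. Treated arrays lie to the right for the Abcc1 probes, Abcc4 and Abcb6 and to the left for Abcc3, while Abcb1a, Abcc2, Abcg2, Abca1 and 1 Abcc5 probe have open circles for all 6 arrays.

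Abcb6, a porphyrin transporter of mitochondrial and endolysosomal membranes, rose from a dim level. Its probe read 113.5, 140.8 and 127 untreated and 162.5, 177.8 and 179.5 treated, above background on all 6. Every treated array was above every untreated array. The log2 intensity went from 5.99 ± 0.28 to 7.03 ± 0.07, a log2 change of 1.04 (SE 0.18, limma adjusted p = 0.0104). It passed with each array left out (limma adjusted p up to 0.0465). Without background correction, which matters most for dim probes, the rise was 1.56-fold (limma adjusted p = 0.0188).

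Abcc5, an exporter of cyclic nucleotides and nucleotide analogues, did not pass. Its tested probe read 147.3, 173.6 and 156.7 untreated and 187.2, 145.6 and 212.9 treated. Withaferin A array 2 had the lowest deposited intensity of all 6, and the groups overlapped. The normalized log2 intensities were 6.53 ± 0.19 and 7.10 ± 0.43, with a log2 change of 0.58 (SE 0.22, 95% interval 0.07 to 1.08, limma adjusted p = 0.156). The change passed in the deposited value table, fitted on differences of same-numbered arrays (limma adjusted p = 0.0429). It also passed with array weights, whose estimate did not converge (limma adjusted p = 0.0154). Those settings called 2687 and 2150 of all 9756 genes tested, against 666 in the fit reported here. With an array left out, Abcc5 passed in 0 of 6 fits. The other Abcc5 probe, annotated to a different RefSeq transcript, was not above background on any array, with detection p from 0.104 to 0.528 and intensities of 72.1 to 75 untreated and 79.2 to 80.8 treated.

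Of the P-glycoprotein genes, which lie side by side on chromosome 5, Abcb1b was measured and Abcb1a was not above background. Abcb1b read 1051.8, 653 and 964.9 untreated and 753.6, 809.1 and 645.5 treated. The treated range lay almost wholly within the untreated one, and untreated array 2 stood below the other untreated arrays. The normalized log2 intensity was 9.56 ± 0.45 untreated and 9.54 ± 0.13 treated, with a log2 change of -0.02 (SE 0.22, 95% interval -0.53 to 0.48, limma adjusted p = 0.963). Both bounds of that interval are smaller in size than the change of Abcc4 or of the brightest Abcc1 probe. The Abcb1a probe read 70.8 to 74.4 untreated and 67.4 to 70.6 treated. The paralogs are closely related, and whether the Abcb1b probe also takes up Abcb1a transcript was not tested.

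The remaining pumps stayed at background in both groups. Abcc2, the conjugate pump of the canalicular membrane, had 2 probes with intensities of 70.5 to 79.1 untreated and 66 to 75.2 treated, and its lowest detection p on any array was 0.205. Abcg2 read 61.3 to 65.7 untreated and 61.6 to 65.5 treated, with a lowest detection p of 0.761. Abca1 read 69.1 to 75.9 untreated and 68.3 to 73.3 treated, with a lowest detection p of 0.300. After normalization the probes of these 3 genes and of Abcb1a lay between 4.30 and 4.63 on the log2 scale. The lowest log2 signals above background were 4.84 to 5.02 over the 6 arrays. A transcript below these levels was not detectable, and no direction can be read for these genes.

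**Figure D2:**
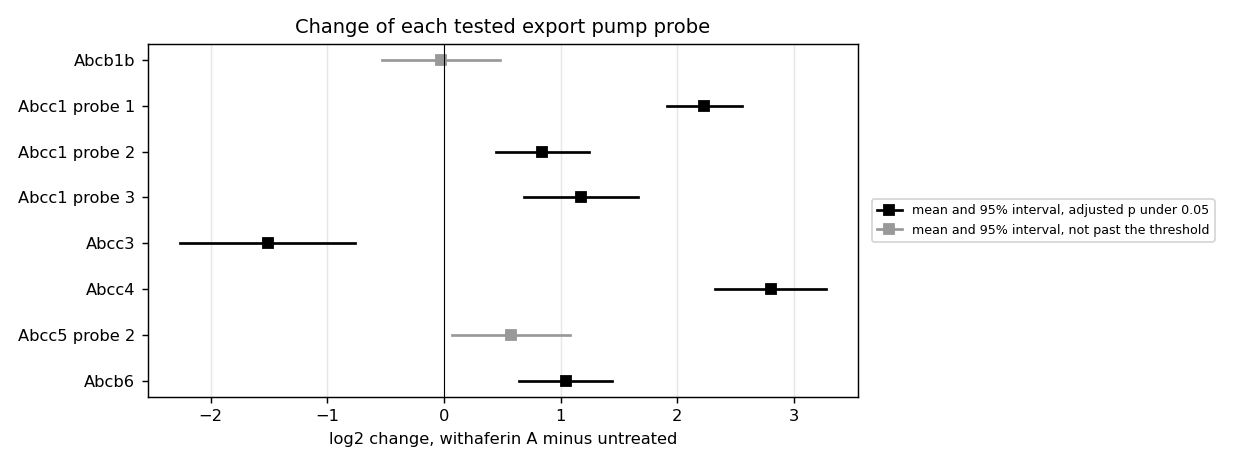
Log2 change (x axis, withaferin A minus untreated) of each tested export pump probe with its 95% interval, 3 arrays per group; black marks probes past the threshold and grey those that did not pass. The intervals of Abcc4 (2.33 to 3.28) and the brightest Abcc1 probe (1.91 to 2.56) lie above those of the other Abcc1 probes and Abcb6, and only that of Abcc3 lies below 0.

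Treated and untreated arrays did not overlap for 4 of the 6 tested pumps, against 30.7% of all genes tested. Beside the pumps, the array holds 41 other genes of the ABC family, of which 19 were tested and 16 were not above background on any array. None of those 19 passed in the limma fit, where 6.83% of all genes tested did, and nothing is read from that count. Of the 19, 6 had an unadjusted p under 0.05, against 26.0% of all genes. Their median log2 change was -0.08, next to 0.01 over all genes. Abcf2, a cytosolic ABC protein that is no pump, had the smallest p of them, with a log2 change of 0.71 (SE 0.19, limma adjusted p = 0.0586). It passed in 1 of the 6 fits with an array left out and in 4 of 11 other settings, and of its other probes 2 of 3 passed (limma adjusted p = 0.0257 and 0.0409). By subfamily, 2 of 5 tested ABCC genes rose and 1 fell, 1 of 6 tested ABCB genes rose, and 0 of 6 ABCA, 0 of 2 ABCD, 0 of 1 ABCE, 0 of 3 ABCF and 0 of 2 ABCG genes passed. These groups are too small for their counts to be read against the 6.83% of all genes. The ABCB group includes the antigen peptide transporter genes Tap1, with a log2 change of -0.50 (limma adjusted p = 0.179), and Tap2, with one of -0.59 (limma adjusted p = 0.392).

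Conjugating enzymes and genes of glutathione supply, which make or feed the substrates of the ABCC pumps, rose in 9 of 32 tested cases and fell in 0, against 2.81% of all genes higher, with a list median of 0.53. The list was chosen with earlier results of these data known, so this count is only a description. Gclm, the regulatory subunit of the rate-limiting enzyme of glutathione synthesis, read 728, 645.9 and 773 untreated and 5199.9, 5061.6 and 4402 treated. Its groups were far apart, and the gene rose 8.23-fold (log2 change 3.04, SE 0.17, limma adjusted p = 1.95e-05). Of the glutathione transferases, Gsta4 was above background on all 6 arrays and had a log2 change of 5.17. Gsta1 and Gsta2, near-identical paralogs that their probes may not separate, were each above background on only 1 of 3 untreated but 3 of 3 treated arrays. The treated arrays alone thus met the filter for both genes, which are among the 9. Their measured log2 changes of 6.97 and 6.13 therefore rest on untreated levels near background and have no firm size, and without background correction the rises were 42.6-fold and 24.3-fold. A further Gsta1 probe was above background on 0 of 3 untreated arrays, and its difference is given as at least 64.1-fold. That probe entered the test through the treated arrays alone and is not counted in support of the rise. The other genes of the list that rose were Gstp1, the cystine carrier gene Slc7a11, Gclc, Gss and the sulfotransferase Sult2b1, between 1.10 and 3.02 on the log2 scale.

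Regulators of pump transcription rose in 3 of 18 cases and fell in 0, with a median of 0.09, where 2.81% of all genes rose. That list, too, was chosen with earlier results of these data known. Nfe2l2, which encodes NRF2, had log2 intensities of 9.49 ± 0.22 and 9.33 ± 0.05, which overlapped, and a log2 change of -0.16 (SE 0.16, limma adjusted p = 0.583). Keap1, the adaptor that targets NRF2 for degradation, rose 1.71-fold (limma adjusted p = 0.0300), but none of its other 3 probes passed (limma adjusted p from 0.112 to 0.132). Ppard, a fatty acid-sensing nuclear receptor gene, rose 1.62-fold (limma adjusted p = 0.0396) and Srebf2, the sterol synthesis regulator, 2.31-fold (limma adjusted p = 0.0132). These calls were fragile: with an array left out, Keap1 passed in 2 of 6 fits, Ppard in 1 of 6 and Srebf2 in 4 of 6.

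Among solute carriers and other drug transporters 2 of 15 rose and 0 fell. Of all genes tested, 2.81% rose and 6.83% passed in either direction. This list and the next 3 held too few calls for their counts to be read against these shares. Slc22a4, a carrier of ergothioneine, rose 2.80-fold (log2 change 1.48, SE 0.19, limma adjusted p = 0.00292) and passed in all 6 fits with an array left out. Slc19a1, the reduced folate carrier, rose 2.02-fold (limma adjusted p = 0.0404) and passed in 1 of those 6 fits. Porphyrin and haem genes, the partners of Abcb6, rose in 1 of 15 cases and fell in 0, with a median of 0.13. That gene was Slc48a1, which exports haem from endolysosomes to the cytosol, at 928.9, 1671.9 and 737.1 untreated and 5108.2, 5302.6 and 4543.3 treated. The groups did not overlap, and the rise was 5.54-fold (log2 change 2.47, SE 0.26, limma adjusted p = 0.000849). LXR targets and cholesterol efflux partners, fixed as company for Abca1, held 1 risen gene of 14, again Srebf2, and 0 that fell. Of 11 anchors and scaffolds that hold pumps at the membrane, 0 passed in the limma fit and 2 had an unadjusted p under 0.05, the smallest of them for Hax1 (log2 change 0.50, limma adjusted p = 0.139).

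**Figure D3:**
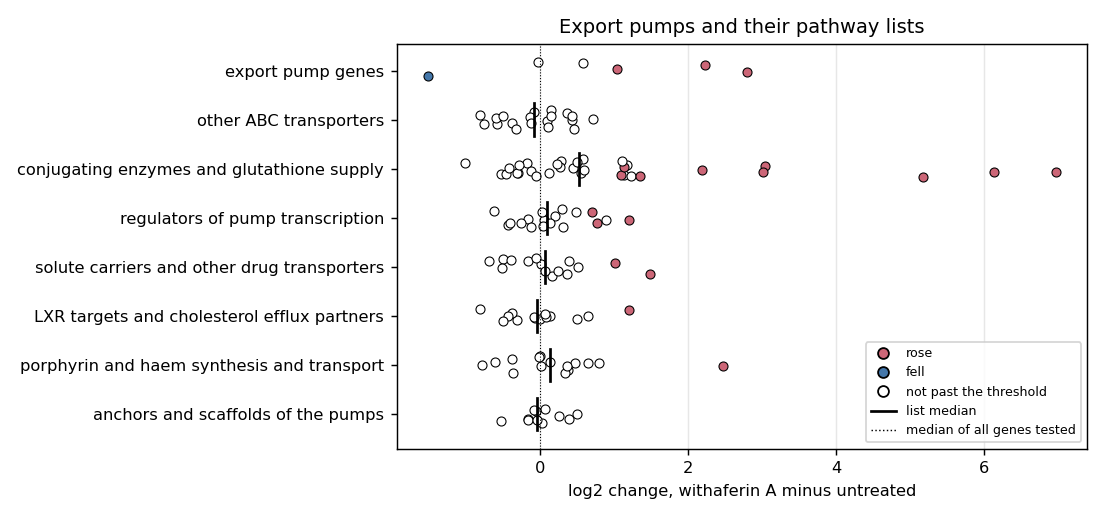
Log2 change (x axis, withaferin A minus untreated) of each tested export pump gene and of each tested gene on 7 pathway lists, 1 circle per gene; red rose, blue fell, open did not pass, solid bars are list medians and the dotted line is the median of all genes. The other ABC transporters lie between -0.81 and 0.71 with 0 past the threshold, against 6.83% of all genes. The conjugating enzymes reach 6.97 for Gsta1, which was above background on 1 of 3 untreated arrays.

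The genes whose 6 array values followed a risen or fallen pump most closely were found by Pearson's r over all tested genes. Such values reflect mainly the step between the groups and are given as a description. For Abcc4 they were Blvrb, which encodes biliverdin reductase B, (r = 0.999), Sec62 (0.998) and Hspa8 (0.997). For Abcc1 they were Gsta2 (0.999), Gsta1 (0.998) and Clec4d (0.998), and for Abcb6 they were Tmem131 (0.996), Kif21a (0.994) and Ubr2 (0.993). For Abcc3 they were Nudt4 (0.997), Serinc4 (0.997) and Ppp6r3 (0.993). Genes next to the pumps on the chromosome, up to 2 protein-coding genes on either side, were measured in 9 cases around the 4 changed pumps. Of these 1 passed, near the 6.83% of all genes that did, so nothing is read from it: Dzip1, a ciliary gene near Abcc4 on chromosome 14, fell by 0.95 on the log2 scale (limma adjusted p = 0.0227).

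**Figure D4:**
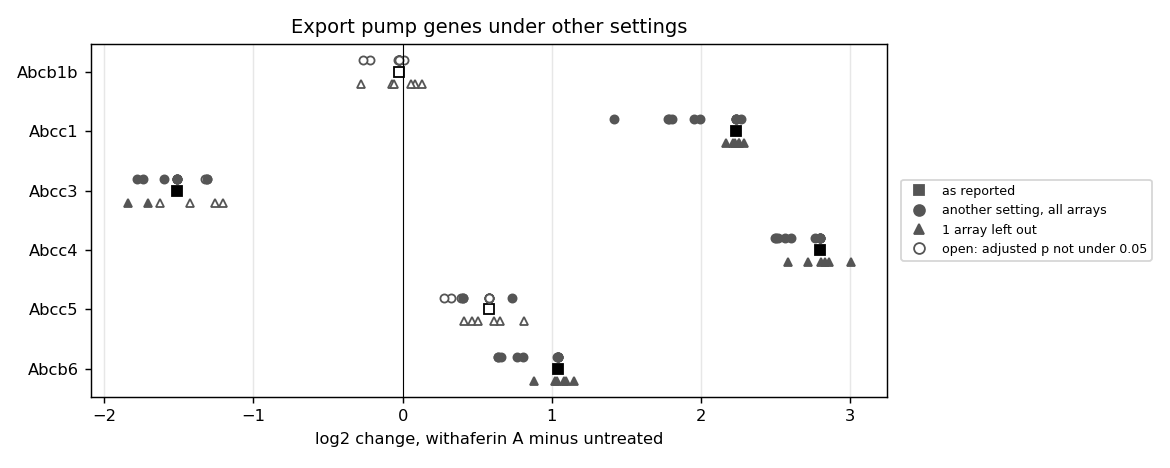
Log2 change (x axis, withaferin A minus untreated) of the 6 tested export pump genes as reported (squares), under 11 other settings with all arrays (circles) and with 1 array left out (triangles); open symbols have an adjusted p not under 0.05. Abcc1, Abcc4 and Abcb6 are filled throughout, Abcc3 is open in 3 of the 11 settings and 4 of the 6 omissions, and Abcb1b crosses 0.

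On each array 18275 to 20104 probes were above background. At the tested probes every treated array was dimmer before normalization (median 191.8 to 202) than every untreated array (218.5 to 235.9). To describe the cells, 7 of 8 epithelial markers were tested, among them the keratins Krt7 and Krt8 and the adhesion molecule Cdh1. Their list means were 8.43 to 8.72 untreated and 7.99 to 8.86 treated on the log2 scale. The untested one, Epcam, was not above background on any array. Of the 8 mesenchymal markers 3 were tested (Vim, Fn1 and Acta2), with list means of 10.08 to 10.16 untreated and 9.97 to 10.23 treated. Of markers of other cell types, Cd14 was the 1 tested leukocyte marker of 6 on the array, and 0 of 5 endothelial and 0 of 4 adipocyte markers were tested. No marker passed in the limma fit. Krt18 (log2 change -0.70, limma adjusted p = 0.0674) and Acta2 (log2 change 0.44, limma adjusted p = 0.110) were the 2 with an unadjusted p under 0.05, and their part in the pump results was not tested.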

How the data were processed

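Total RNA of 6 samples was labelled with biotin and hybridised to an Illumina mouse bead array, per the labels' protocols. The authors deposited probe intensity values that were neither normalized nor, as far as the values show, background-subtracted. Beside each intensity the deposited table gives a fraction whose header names a detection p; since bright probes reach 1, it was taken as 1 minus p. The deposited value table holds log2 values centred within same-numbered arrays, as its mirrored columns show (medians -0.000566, -0.00265 and -0.00108 untreated, 0.000566, 0.00265 and 0.00108 treated); set against the intensities, its scale and direction follow (slopes of 1.02, 1.12 and 1.06), and its normalization stays unknown.

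Intensities were background-corrected by normexp with negative controls inferred from the detection p, offset 16, quantile-normalized and taken to log2 (neqc, limma 3.58.1, R 4.3.3). Tested were probes with detection p under 0.05 on 3 or more of the 6 arrays, with lmFit and eBayes, two-sided, adjusted by Benjamini-Hochberg. Errors are SDs or limma standard errors, and the number of arrays limits the precision. Where a gene had several tested probes, the one with the highest mean stands for it. Of 45281 probes, 34885 had 1 symbol, 18 several and 10378 were unlisted; 34807 symbols were found by gene ID in a GRCm38.p6 gene table and 0 changed. The array's build is not named, so positions are given for RefSeq promoter windows alone.

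The named genes were all pumps, per list up to 3 called genes ranked by size of change, else its gene of smallest p, the 3 genes most like each called pump, and Nfe2l2, Gclm, Ezr and Rdx, of which Ezr has no probe under that symbol in the annotation used and Rdx was not tested. Genes named in passing beyond this rule (the rest of the substrate list, Tap1, Tap2, Dzip1 and the cell type markers singled out from their lists) were chosen after their values were seen. The pumps and the lists were chosen with earlier results of these data known. The fit was tested on simulated data. Alternatives covered background correction, normalization, the value table, the detection filter, a replicate block, array weights, the variance model, averaging of probes and each array left out.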

Additional observations from a re-analysis of the deposited data

How the results depend on the processing

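The rises of Abcc1, Abcc4 and Abcb6 passed in all 11 alternatives with every array and all 6 omissions of an array, and the number of pumps past the threshold was 3 to 5 of 6 tested, or 3 of 10 with no detection filter. For Abcc1, the alternative that averaged its probes took in the dim one, which is not counted in support of the rise. Abcb1b changed sign at 0.011 with array weights, and from -0.28 to 0.13 with each array left out; the cause was not tested. Over all genes, 666 passed, and 1431 with median scaling, 1691 without normalization between arrays, 2687 in the value table, 337 with no detection filter (172 higher, 165 lower), 1023 with the replicate block, 2150 with array weights, whose estimate did not converge and gave withaferin A array 1 a weight of 10.2 against at most 0.967 for the others, and 242 to 888 with an array left out; the count was moved by over 1.5 times without untreated array 3 (309) or withaferin A arrays 1 (242) or 2 (322). Of 121 tested list genes 15 passed, all higher, where 666 of all 9756 genes tested passed in either direction. The list count was 25 without normalization (13 lower, 1691 over all genes), 44 in the value table (2687) and 26 with the block (1023). It was 39 with array weights (2150) and 11 to 18 with an array left out (242 to 888). The causes of these shifts were not tested. The labels do not say what a replicate number marks, so the numbers were not taken as pairs in the fit reported here. The value table is centred within same-numbered arrays. Its fit tested the differences of those arrays and so did take the numbers as pairs. Deviations of same-numbered arrays correlated at 0.267, -0.0386 and 0.318, and those of differently numbered arrays at -0.391 to 0.267. These values do not settle whether the numbers mark pairs. The block changed no pump's call. The dim Abcc1 probe lost its call with no filter (limma adjusted p = 0.0722) or without background correction (limma adjusted p = 0.0519) and passed in 2 of 6 omissions, and the Abcc1 probe of the cDNA record lost its call with no filter (limma adjusted p = 0.0831) and passed in 3 of 6. Signal near background limits Abcb6, and Abcb1a, Abcc2, Abcg2 and Abca1 were not above background on any array.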
